A study of Mus musculus with 6 samples.

Results

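The lysosomal genes of cultured bone marrow myeloid cells were described here from 41 members, listed by gene symbol: 11 proteases, 9 glycosidases, 8 lipid hydrolases, lipid-handling activators and cholesterol carriers, 7 membrane or lumenal proteins that include a channel, 4 subunits of the proton pump and 2 transcription factors. A probe belonged to a member when the gene name in the scanner files was that symbol, which gave 81 of the 56605 probes on the array, and 41 of the 37325 genes. The study used C57BL/6J female mice of 6 to 8 weeks of age and cultured their bone marrow (BM) cells with GM-CSF, a growth factor for myeloid cells. The 6G- BM-MDSC were BM cells depleted of Ly-6G+ cells on magnetic beads and then cultured for 4 days with 40 ng/mL GM-CSF. The MDSC (conv.) were unseparated BM cells given the same culture. Myeloid-derived suppressor cells (MDSC) are immature myeloid cells that restrain T cells. Dendritic cells (DCs), which present antigen to T cells, were grown from unseparated BM cells for 8 days with 20 ng/mL GM-CSF in dishes not treated for tissue culture. The methods describe no sort between culture and RNA extraction for the arrays, so each sample may hold a mixture of cells, and time and GM-CSF dose differ together between both MDSC groups and DCs. Each group had 2 one-colour arrays. A level below is a log2 signal relative to the 75th percentile of its array, a difference is a difference between 2 group means on that scale, and the standard error (SE) comes from the fit.

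Lysosomes are acidic compartments in which proteases, glycosidases and lipid-degrading enzymes break down what a cell takes up or recycles. The vacuolar ATPase pumps protons into the lumen, LAMP proteins line the membrane, and many of the hydrolases are delivered through the mannose 6-phosphate receptors. In antigen-presenting cells some of the same proteases cut the invariant chain and antigens for MHC class II. The transcription factor TFEB and its relative MITF bind a short E-box sequence in the promoters of many lysosomal genes, called the CLEAR element.

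All 6 arrays were on 1 slide and were scanned together. The 75th percentile of the processed intensity was 560.2 to 633.3, and 55.6% to 59.9% of probes were well above background. Arrays of the same group correlated at r = 0.995 to 0.996 over all genes, and MDSC arrays with DC arrays at 0.971 to 0.976. Both MDSC groups occupied the first row of the slide and DCs the second, so the row and the difference from DCs cannot be told apart. The labels number the replicates but do not say whether they came from separate cultures or animals, so the p-values measure only the spread between these samples. All 41 members were well above background on both arrays of every group and all were tested. In these bulk samples fewer cells of a type and less RNA per cell cannot be told apart.

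The members moved in both directions between MDSC and DCs. In 6G- BM-MDSC, 5 members were higher and 9 were lower than in DCs, where 15% and 17.8% of all 21862 genes tested were higher and lower. In MDSC (conv.), 5 were higher and 8 lower than in DCs, against 13.4% and 15.8% of all genes. Past the test in both comparisons, which share the DC arrays, were 4 members on the higher side (9.76% of them, against 11.3% of all genes) and 8 on the lower side (19.5%, against 13.1%). The members' median difference from DCs was -0.01 in 6G- BM-MDSC and -0.05 in MDSC (conv.), and that of all genes was -0.04 and -0.03. The arrays of 6G- BM-MDSC and DCs did not overlap in 15 members on the higher side and 16 on the lower (33.6% and 39.2% of all genes), and those of MDSC (conv.) and DCs in 14 and 20 (33.1% and 38%). A difference of at least 2-fold past the test was found in 3 members, in each MDSC group: Ctse was higher (as were 5.36% of all genes in 6G- BM-MDSC and 5.33% in MDSC (conv.)), and Atp6v0d2 and Gm2a were lower (4.58% and 3.77%). With the arrays scaled to their median instead, the split in 6G- BM-MDSC was 8 members higher and 7 lower. That scaling moved the calls over all genes the same way, from 3282 higher and 3889 lower to 3983 and 2712. Without DCs replicate 2 the calls were 1 higher and 4 lower in each MDSC group, and without 6G- BM-MDSC replicate 2, DCs replicate 1 or MDSC (conv.) replicate 2, the higher side fell to 1 or 2.

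**Figure D1:**
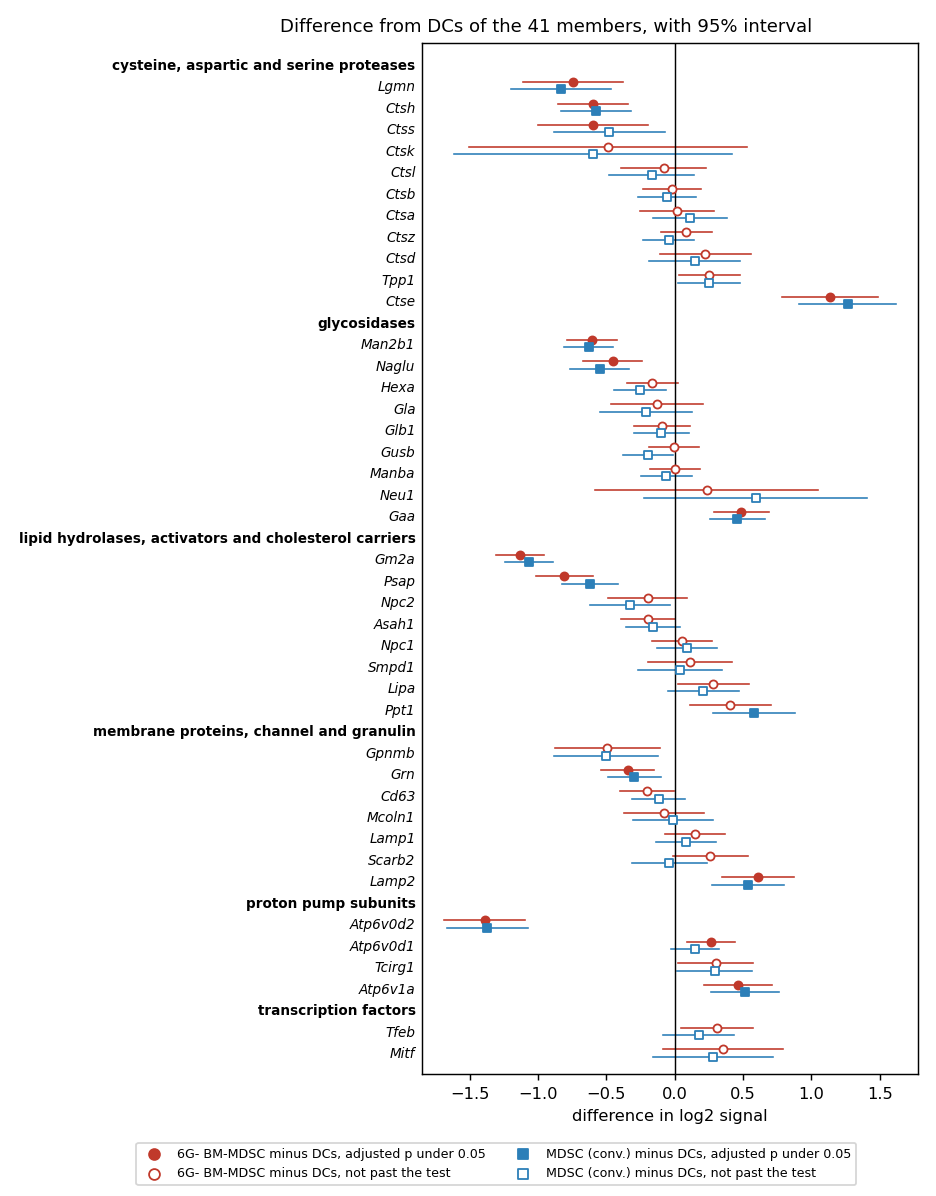
Difference in log2 signal from DCs (horizontal axis) of the 41 members grouped by role, with the 95% interval of the fit as a line; circles are 6G- BM-MDSC minus DCs, squares MDSC (conv.) minus DCs, and filled symbols are past the test. Most symbols lie near 0, with Atp6v0d2 and Gm2a at -1.39 and -1.13 and Ctse at 1.13 in 6G- BM-MDSC.

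The promoters of the members were searched for the E-box, CACGTG, and for the CLEAR core, TCACGTGA, an E-box flanked by T and A that is therefore also counted as an E-box. Both read the same on either strand. RefSeq windows on GRCm38.p6, each running from 250 bases before to 50 bases after a start, were matched by symbol for 35 of the 41 members (44 windows). An E-box was present in 12 of the 35 (34.3%), against 8.09% of the 27025 genes with a window, and the CLEAR core in 6 (17.1%), against 1.12%. The 8 members lower in both MDSC groups and the 4 higher were matched for 6 and 3 genes. The CLEAR core was in 0 of the 6 (an E-box alone in 2, Lgmn and Naglu). Of the 3, 1 held the CLEAR core, Atp6v1a, and 2 held an E-box, Gaa and Atp6v1a. Of the members not called in both, 26 were matched, with the CLEAR core in 5 (19.2%) and an E-box in 8 (30.8%). The sequences below, read 5′ to 3′ in the direction of transcription with the CLEAR core in capitals, show each core that lies before the start. In Atp6v0d1 the core lay after the start.
Ctsa, chr2:164833738-164833772, + strand: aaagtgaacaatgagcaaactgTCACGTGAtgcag
Ctsd, chr7:142387897-142387948, - strand: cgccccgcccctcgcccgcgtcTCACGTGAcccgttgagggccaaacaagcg
Gla, distal, chrX:134601204-134601255, - strand: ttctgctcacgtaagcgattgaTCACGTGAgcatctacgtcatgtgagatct
Gla, proximal, chrX:134601171-134601222, - strand: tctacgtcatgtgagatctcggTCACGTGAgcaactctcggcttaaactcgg
Mcoln1, chr8:3500451-3500502, + strand: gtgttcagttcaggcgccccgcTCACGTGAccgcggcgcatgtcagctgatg
Atp6v1a, chr16:44139362-44139413, - strand: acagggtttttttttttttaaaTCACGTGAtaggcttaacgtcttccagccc
The 2 Gla stretches overlap. Of these 5 genes, Atp6v1a alone passed the test against DCs with the probe that stands for the gene. Gla, which encodes alpha-galactosidase A, read 7.07 and 7.29 in 6G- BM-MDSC and 6.96 and 7.24 in MDSC (conv.), against 7.31 and 7.31 in DCs, and its differences of -0.13 and -0.21 did not pass.

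Of the 11 proteases, Lgmn and Ctsh were lower (18.2%, against 13.1% of all genes) and Ctse was higher (9.09%, against 11.3%) in both MDSC groups than DCs. Ctss was called lower in 6G- BM-MDSC, and the other 7 passed in neither comparison. Legumain (Lgmn), an asparaginyl endopeptidase that processes antigens and other cathepsins, read 4.51 and 4.72 in 6G- BM-MDSC and 4.41 and 4.64 in MDSC (conv.), against 5.24 and 5.48 in DCs. Its DC arrays lay above all 4 MDSC arrays, and the differences were -0.74 (SE 0.14, 1.67-fold lower, adjusted p = 0.0182) and -0.83 (SE 0.14, 1.78-fold lower, adjusted p = 0.0142). Cathepsin H (Ctsh), an aminopeptidase, read 6.80 and 6.58 in 6G- BM-MDSC and 6.73 and 6.70 in MDSC (conv.), against 7.27 and 7.32 in DCs. It was lower by all 4 of its kept probes, and the probe that stands for the gene (mm9 chr9:89970828-89970887) gave -0.60 and -0.58 (SE 0.10, adjusted p = 0.0123 and 0.0146). Cathepsin S (Ctss), which removes the last pieces of invariant chain from MHC class II, read 7.93 and 7.54 in 6G- BM-MDSC and 7.92 and 7.80 in MDSC (conv.), against 8.25 and 8.42 in DCs. The groups did not overlap, but only the difference of 6G- BM-MDSC passed (-0.60, SE 0.16, adjusted p = 0.0418), that of MDSC (conv.) being -0.48 (adjusted p = 0.0796). The call in 6G- BM-MDSC was lost in 13 of 20 alternative settings. These settings overlap, and a 2-fold minimum among them fails any smaller difference by definition.

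Cathepsin E (Ctse), an aspartic protease of endosomes rather than of mature lysosomes, was the member with the highest positive difference. It read -2.74 and -2.47 in 6G- BM-MDSC and -2.55 and -2.39 in MDSC (conv.), against -3.63 and -3.85 in DCs. The 4 MDSC arrays were above both DC arrays, by 1.13 in 6G- BM-MDSC (SE 0.14, 2.20-fold, adjusted p = 0.00506) and 1.27 in MDSC (conv.) (SE 0.14, 2.40-fold, adjusted p = 0.00396). Its single probe lies at mm9 chr1:133571990-133572049. With the normexp background correction the differences were 0.53 in 6G- BM-MDSC and 0.55 in MDSC (conv.), under 2-fold but still past the test.

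Other cathepsins, some of which also take part in antigen processing, did not pass in either comparison with DCs. Ctsb and Ctsl, cysteine proteases, and Ctsd, the main aspartic protease of the lysosome, differed from DCs by -0.02, -0.08 and 0.22 in 6G- BM-MDSC and by -0.05, -0.17 and 0.14 in MDSC (conv.). The same held for Ctsz, a carboxypeptidase (0.08 and -0.04), Ctsa, the protective protein of galactosidase and neuraminidase (0.02 and 0.11), and Tpp1, a tripeptidyl peptidase (0.25 and 0.25, adjusted p = 0.0817 and 0.0913). Cathepsin K (Ctsk), the collagen-degrading protease of osteoclasts, was set apart by its replicates. It read 1.31 and 1.29 in 6G- BM-MDSC and 1.12 and 1.24 in MDSC (conv.), against 1.17 and 2.39 in DCs. One DC array lay within the MDSC range and the other above it, and its differences of -0.48 and -0.60 (SE 0.39) did not exceed the spread.

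Of the 9 glycosidases, 2 were lower (22.2%, against 13.1% of all genes) and 1 was higher (11.1%, against 11.3%) in both MDSC groups, set against DCs. Man2b1, the lysosomal alpha-mannosidase that trims N-glycans, read 5.28 and 5.23 in 6G- BM-MDSC and 5.23 and 5.23 in MDSC (conv.), against 5.89 and 5.83 in DCs. The MDSC arrays agreed closely and all lay below DCs, with differences of -0.61 (SE 0.07, 1.52-fold lower, adjusted p = 0.00453) and -0.63 (SE 0.07, 1.55-fold lower, adjusted p = 0.00437). Naglu, which removes N-acetylglucosamine from heparan sulfate, read 4.40 and 4.25 in 6G- BM-MDSC and 4.24 and 4.22 in MDSC (conv.), against 4.75 and 4.81 in DCs. Both groups passed, with differences of -0.45 and -0.55 (SE 0.08, adjusted p = 0.0167 and 0.0108). Acid alpha-glucosidase (Gaa), which breaks down glycogen in lysosomes, went the other way. It read 3.49 and 3.61 in 6G- BM-MDSC and 3.50 and 3.55 in MDSC (conv.), against 3.08 and 3.05 in DCs, higher by 0.49 and 0.46 (SE 0.08, 1.40-fold and 1.37-fold, adjusted p = 0.0113 and 0.0143). Its second kept probe gave 0.77 and 0.67, both past the test over all probes.

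The other glycosidases did not pass. Hexa, the alpha subunit of beta-hexosaminidase, differed by -0.16 and -0.25 (adjusted p = 0.144 and 0.0575), Glb1, beta-galactosidase, by -0.09 and -0.10, and Manba, beta-mannosidase, by 0.00 and -0.06. Neuraminidase 1 (Neu1), which removes sialic acid, was the least certain of them. It read 5.07 and 4.22 in 6G- BM-MDSC and 4.76 and 5.24 in MDSC (conv.), against 4.41 and 4.41 in DCs, and its differences of 0.23 and 0.59 had an SE of 0.32.

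Of the 8 lipid-handling members, 2 activator proteins, Gm2a and Psap, were lower in both MDSC groups than DCs (25%, against 13.1% of all genes). On the higher side 0 passed in both (against 11.3% of all genes), and Ppt1 was called higher in MDSC (conv.). Gm2a, the GM2 activator that lifts gangliosides out of membranes for hexosaminidase, read 2.22 and 2.24 in 6G- BM-MDSC and 2.30 and 2.29 in MDSC (conv.), against 3.37 and 3.35 in DCs. Replicates of a group differed by at most 0.02, and the differences were -1.13 (SE 0.07, 2.19-fold lower, adjusted p = 0.000798) and -1.06 (SE 0.07, 2.09-fold lower, adjusted p = 0.000941), with the lowest adjusted p of the 41 members in both comparisons. Its probe lies at mm9 chr11:54923856-54923915. Prosaposin (Psap), the precursor of the saposins that serve the sphingolipid hydrolases, read 5.99 and 6.02 in 6G- BM-MDSC and 6.21 and 6.17 in MDSC (conv.), against 6.88 and 6.75 in DCs. Its probe, at mm9 chr10:59764825-59764884, gave differences of -0.81 (SE 0.08, 1.75-fold lower, adjusted p = 0.003) and -0.62 (SE 0.08, 1.54-fold lower, adjusted p = 0.00653). The hydrolases and carriers that work beside them did not pass with the probe that stands for the gene. Asah1, acid ceramidase, differed by -0.19 and -0.16, Smpd1, acid sphingomyelinase, by 0.11 and 0.04, and Lipa, acid lipase, by 0.28 and 0.21. The cholesterol carriers Npc1 and Npc2 differed by 0.05 and -0.20 in 6G- BM-MDSC and 0.09 and -0.33 in MDSC (conv.). Ppt1, which removes palmitate from proteins, read 3.69 and 3.78 in 6G- BM-MDSC and 3.78 and 4.03 in MDSC (conv.), against 3.27 and 3.39 in DCs. It passed in MDSC (conv.) (0.58, SE 0.12, adjusted p = 0.0218, against 0.41 and adjusted p = 0.0515 in 6G- BM-MDSC, the difference between both MDSC groups being -0.17 and not past the test), and all 5 of its probes had positive differences in both groups.

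**Figure D2:**
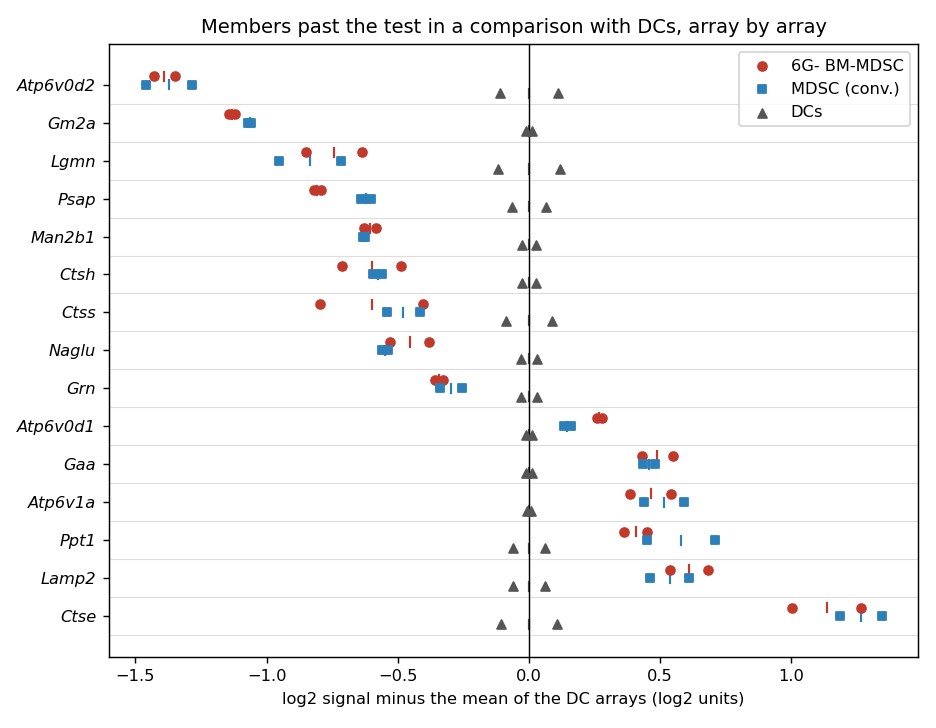
Log2 signal on each array minus the mean of the DC arrays (horizontal axis) for the 15 members past the test in at least 1 comparison with DCs; circles are 6G- BM-MDSC, squares MDSC (conv.), triangles DCs, and short bars mark group means. In each of the 15 the 4 MDSC arrays lie on the same side of both DC arrays. The 15 were chosen by the test on these same arrays, so that separation is not separate support for the calls.

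Of the 7 membrane and lumenal proteins, Lamp2 was higher and Grn lower in both MDSC groups, set against DCs (14.3% each, against 11.3% and 13.1% of all genes). LAMP2, a major glycoprotein of the lysosomal membrane with splice forms that serve autophagy, was read by 3 probes. The brightest, at mm9 chrX:35772774-35772833 on transcript NM_010685, read 4.67 and 4.82 in 6G- BM-MDSC and 4.60 and 4.75 in MDSC (conv.), against 4.20 and 4.07 in DCs, with differences of 0.61 and 0.54 (SE 0.10, adjusted p = 0.0126 and 0.0191). The probe for transcript NM_001017959 read 3.11 and 3.25 in 6G- BM-MDSC and 3.01 and 3.01 in MDSC (conv.), against 3.06 and 3.08 in DCs, and the third probe differed by 0.05 and 0.03. The higher signal was thus a property of 1 of the 3 probes, and the call was lost when the probes were averaged. Lamp1, its paralog, differed by 0.15 and 0.09, and neither difference passed.

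Progranulin (Grn), a secreted precursor that lysosomes cut into granulins, read 7.82 and 7.78 in 6G- BM-MDSC and 7.80 and 7.89 in MDSC (conv.), against 8.11 and 8.17 in DCs, with differences of -0.34 and -0.30 (SE 0.08, adjusted p = 0.0265 and 0.042). Its other probes differed by -0.03 and -0.06 in 6G- BM-MDSC and by 0.14 and -0.14 in MDSC (conv.), none of them past the test, and the average of the probes did not pass either. The call was lost in 9 of 20 alternative settings in 6G- BM-MDSC and in 13 of 20 in MDSC (conv.). Quantile normalization and median scaling were among them, as was the 2-fold minimum, which it could not meet. Gpnmb, a glycoprotein of macrophage lysosomes that MITF family members control, read 4.10 and 4.29 in 6G- BM-MDSC and 4.02 and 4.35 in MDSC (conv.), against 4.61 and 4.77 in DCs. The groups did not overlap, and the differences of -0.49 and -0.50 had adjusted p-values of 0.0595 and 0.0615. Cd63, a tetraspanin of late endosomes, differed by -0.20 and -0.12. The calcium channel Mcoln1, which signals to TFEB, differed by -0.08 and -0.01.

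Of the 4 proton pump subunits, Atp6v0d2 was lower and Atp6v1a higher in both MDSC groups than DCs (25% each, against 13.1% and 11.3% of all genes). Atp6v0d1 was called higher in 6G- BM-MDSC, and Tcirg1 was not called. The d subunit of the membrane sector has an isoform found in most cells, Atp6v0d1, and another, Atp6v0d2, known from osteoclasts, some macrophages and DCs. Atp6v0d2 read 1.81 and 1.89 in 6G- BM-MDSC and 1.78 and 1.96 in MDSC (conv.), against 3.13 and 3.35 in DCs. All MDSC arrays were lower than all DC arrays, with differences of -1.39 (SE 0.11, 95% interval -1.69 to -1.09, 2.62-fold lower, adjusted p = 0.00184) and -1.37 (SE 0.11, 95% interval -1.67 to -1.08, 2.59-fold lower, adjusted p = 0.00195), the largest differences of the 41 members. Both its probes, at mm9 chr4:19805367-19805426 and chr4:19837769-19837828, showed it, the second with -1.29 and -1.26. Atp6v0d1 read 4.91 and 4.93 in 6G- BM-MDSC and 4.81 and 4.78 in MDSC (conv.), against 4.63 and 4.66 in DCs. It was higher by 0.27 in 6G- BM-MDSC (SE 0.07, adjusted p = 0.0385) and by 0.15 in MDSC (conv.), which did not pass (adjusted p = 0.17). The call in 6G- BM-MDSC was lost in 10 of 20 alternative settings, which overlap and include the 2-fold minimum.

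Atp6v1a, the catalytic subunit that splits ATP, was higher in MDSC. It read 4.48 and 4.64 in 6G- BM-MDSC and 4.54 and 4.69 in MDSC (conv.), against 4.09 and 4.10 in DCs, with differences of 0.46 and 0.51 (SE 0.10, 1.38-fold and 1.43-fold, adjusted p = 0.0228 and 0.0184). Tcirg1, the a3 subunit that places the pump on lysosomes and on the osteoclast border, read 5.55 and 5.71 in 6G- BM-MDSC and 5.53 and 5.71 in MDSC (conv.), against 5.38 and 5.27 in DCs. Its differences of 0.30 and 0.29 did not pass (adjusted p = 0.0897 and 0.103), while a second probe passed over all probes with 0.38 and 0.29 (adjusted p = 0.0197 and 0.0448).

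Neither transcription factor passed with the probe that stands for the gene. Tfeb read 0.25 and 0.49 in 6G- BM-MDSC and 0.26 and 0.21 in MDSC (conv.), against 0.05 and 0.06 in DCs, with differences of 0.31 and 0.17 (adjusted p = 0.0727 and 0.253). A probe for another Tfeb transcript, XM_006524004, at mm9 chr17:47896359-47896418, read -0.86 and -0.82 in 6G- BM-MDSC and -0.61 and -0.66 in MDSC (conv.), against -0.27 and -0.31 in DCs. That probe differed by -0.55 and -0.34 (adjusted p = 0.00732 and 0.0282 over all probes), the opposite sign to the main probe. Mitf read 3.13 and 3.04 in 6G- BM-MDSC and 2.85 and 3.18 in MDSC (conv.), against 2.56 and 2.91 in DCs, differences of 0.35 and 0.28 (adjusted p = 0.173 and 0.27). Its 3 other probes were higher in 6G- BM-MDSC than in DCs, by 1.01, 0.97 and 0.74 (adjusted p = 0.00944, 0.00832 and 0.0161 over all probes). The first of them, at mm9 chr6:97968386-97968445, read 1.99 and 1.96 in 6G- BM-MDSC and 1.38 and 1.44 in MDSC (conv.), against 0.76 and 1.18 in DCs. In MDSC (conv.) the same 3 probes differed from DCs by 0.43, 0.38 and 0.70, of which the last passed (adjusted p = 0.0205).

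Of the 41 members, 20 had more than 1 kept probe. In 6G- BM-MDSC against DCs, all probes of 3 of the 20 (Ctsh, Gaa and Atp6v0d2) passed the same way, 9 had probes on both sides of the threshold, 8 had no probe past it, and 0 had probes called in opposite directions. In MDSC (conv.) these counts were 3, 10, 7 and 0. Probes of a gene differed in sign, called or not, in 10 of the 20 in 6G- BM-MDSC and in 7 in MDSC (conv.). Over all kept probes of the array 15% were higher and 16.2% lower in 6G- BM-MDSC, and 13.4% and 14.3% in MDSC (conv.). Scarb2, the receptor that carries glucocerebrosidase to lysosomes, Ctsl and Mcoln1 were not called by the probe that stands for the gene but had a second probe past the test. The second Scarb2 probe read 2.64 and 2.58 in 6G- BM-MDSC and 2.58 and 2.59 in MDSC (conv.), against 3.06 and 3.23 in DCs (-0.54 and -0.56, adjusted p = 0.0135 and 0.013). The second Ctsl probe was higher by 0.97 and 0.92, and the second Mcoln1 probe differed by -0.45 and -0.59, lower in MDSC. Signals of different probes cannot be compared in level, and which transcript each of them reports was not tested.

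**Figure D3:**
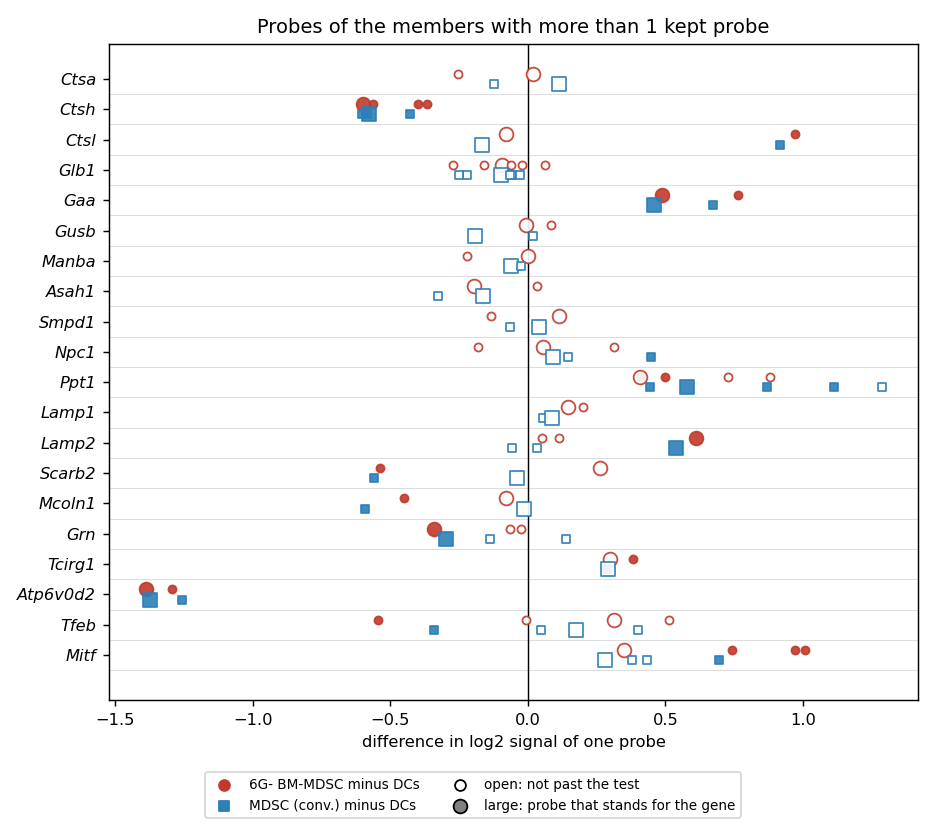
Difference in log2 signal from DCs (horizontal axis) for each kept probe of the 20 members with more than 1; circles are 6G- BM-MDSC minus DCs, squares MDSC (conv.) minus DCs, filled symbols are past the test over all probes, and the large symbol is the probe that stands for the gene. The probes of Ctsh, Gaa and Atp6v0d2 lie together on one side of 0, while those of Tfeb, Scarb2 and Ctsl spread across it or away from it.

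The comparison of 6G- BM-MDSC with MDSC (conv.) asks what depletion of Ly-6G+ cells before culture changed, and no member passed the test. Between 6G- BM-MDSC and MDSC (conv.), 0 of 41 members were called with limma, as were 3 of the 21862 genes tested (0.0137%), and the lowest adjusted p of a member was 0.433. At an unadjusted p under 0.05 there were 2 members, both higher in 6G- BM-MDSC, where 10.8% of all genes stood at that level. These were Gusb, beta-glucuronidase, and Scarb2. Gusb read 5.45 and 5.41 in 6G- BM-MDSC, against 5.23 and 5.26 in MDSC (conv.), a difference of 0.19 (SE 0.07, adjusted p = 0.459) that its second probe gave as 0.07. Scarb2 read 3.12 and 3.11 in 6G- BM-MDSC, against 2.69 and 2.94 in MDSC (conv.), a difference of 0.30 (SE 0.11, adjusted p = 0.433) that its second probe gave as 0.02. The methods' t-test, without adjustment, put 2 members higher and 2 lower, where it put 843 and 939 of all genes. After Benjamini-Hochberg adjustment it called 0 members and 0 of all genes.

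The differences between both MDSC groups ran from -0.36 (Neu1) to 0.30 (Scarb2) with a median of 0.03, and 26 of 41 were positive, against 50.9% of all genes. For the 3 members that differed at least 2-fold from DCs, the intervals between both MDSC groups lay within 2-fold. For Atp6v0d2 the difference was -0.02 with a 95% interval of -0.31 to 0.28, for Gm2a -0.07 (-0.24 to 0.11) and for Ctse -0.13 (-0.48 to 0.22). The difference of Psap was -0.19 (-0.39 to 0.02, adjusted p = 0.494), and its arrays did not overlap. Such separation between both MDSC groups was found in 8 members on the higher side and 3, Psap among them, on the lower. Over all 21862 genes tested it was found in 4888 and 4769. For Ctsk and Neu1 the intervals, -0.90 to 1.13 and -1.17 to 0.46, were the widest of the members and leave a 2-fold difference possible. The 2 Mitf probes that were highest in 6G- BM-MDSC differed from MDSC (conv.) by 0.57 and 0.59, with adjusted p = 0.365 and 0.34 over all probes.

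**Figure D4:**
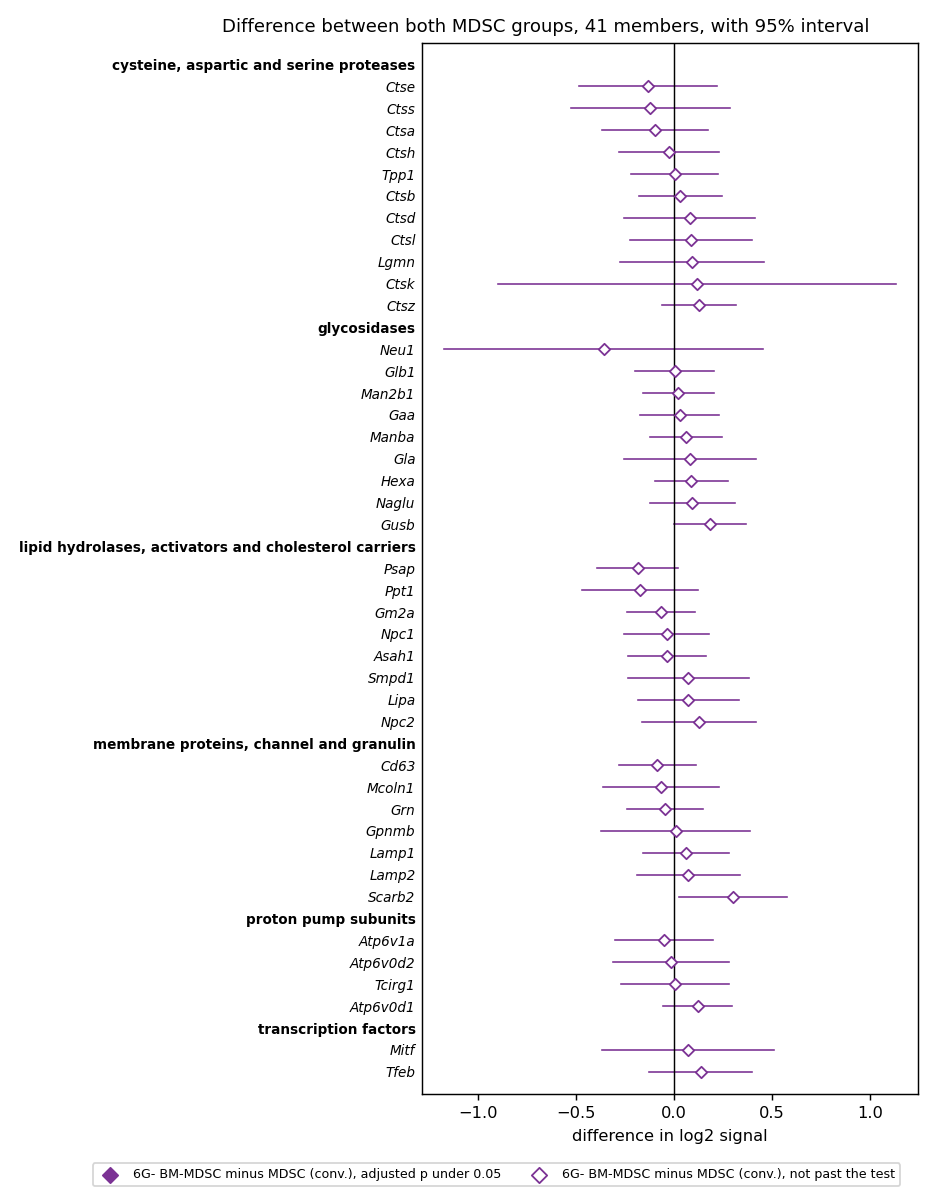
Difference in log2 signal between 6G- BM-MDSC and MDSC (conv.) (horizontal axis) of the 41 members grouped by role, with the 95% interval of the fit as a line; no symbol is filled, since 0 members passed the test. The differences run from -0.36 to 0.30, and the intervals of Ctsk and Neu1 are the widest.

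Other genes of the lysosome were taken from lists written from knowledge of the pathway, and their counts are read against the 11.3% of all genes that were higher and the 13.1% that were lower in both comparisons with DCs. Of 40 other lysosomal hydrolases, 4 passed both comparisons with DCs on the higher side (10%) and 11 on the lower (27.5%). Arsg, a sulfatase, was higher by 1.90 and 1.75 (adjusted p = 0.000702 and 0.000887), and Rnaset2b and Rnaset2a, a pair of near-identical acid ribonuclease genes whose probes may not be separable, were lower, with differences of -1.94 and -2.31 and of -0.97 and -0.96. Of 33 other membrane proteins and transporters, 5 were higher and 5 lower (15.2% each). Slc11a1, the metal transporter NRAMP1 of phagosomes, read 3.55 and 3.58 in 6G- BM-MDSC and 2.91 and 3.09 in MDSC (conv.), against 0.9995 and 0.77 in DCs, differences of 2.68 and 2.12 (adjusted p = 0.000365 and 0.000667). Abcb9, a peptide transporter, was higher by 1.14 and 1.33, and Slc15a3, a peptide and histidine transporter, was lower, with differences of -1.17 and -1.30.

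Among 15 other proton pump subunits, 4 were higher (26.7%) and 1 lower (6.67%), against DCs, in both MDSC groups. Atp6v0a2, an a subunit, was lower, with differences of -0.82 and -0.70, while Atp6v0c, the proton-carrying ring, was higher by 0.69 and 0.57 and Atp6v1e1, a stalk subunit, by 0.52 and 0.42. Of 26 genes for delivery to lysosomes, 3 were higher and 3 lower (11.5% each). The sorting receptor Sort1 was higher by 1.03 and 0.91 and the adaptor subunit Ap3s1 by 0.66 and 0.88, and the adaptor Gga2 was lower, with differences of -0.67 and -0.77. Of 18 genes of the TFEB family, of the lysosomal anchor of mTORC1 and of their regulators, 5 were higher (27.8%) and 2 lower (11.1%). Tfec, a relative of TFEB and MITF found in myeloid cells, was higher by 1.28 and 1.21 (adjusted p = 0.00254 and 0.003), Fnip2, a partner of folliculin, by 0.70 and 0.78, and Rptor, the mTORC1 scaffold, was lower, with differences of -0.75 and -0.82. Between 6G- BM-MDSC and MDSC (conv.), 0 genes of these 5 lists were called with limma. At an unadjusted p under 0.05, 914 of all 21862 genes tested were higher and 1444 lower. At that level 7 of the 40 hydrolases were higher and 1 lower, and of the 33 membrane proteins 1 and 1. The counts were 1 and 0 of the 26 delivery genes, 0 and 1 of the 18 in the TFEB list and 0 and 0 of the 15 pump subunits.

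**Figure D5:**
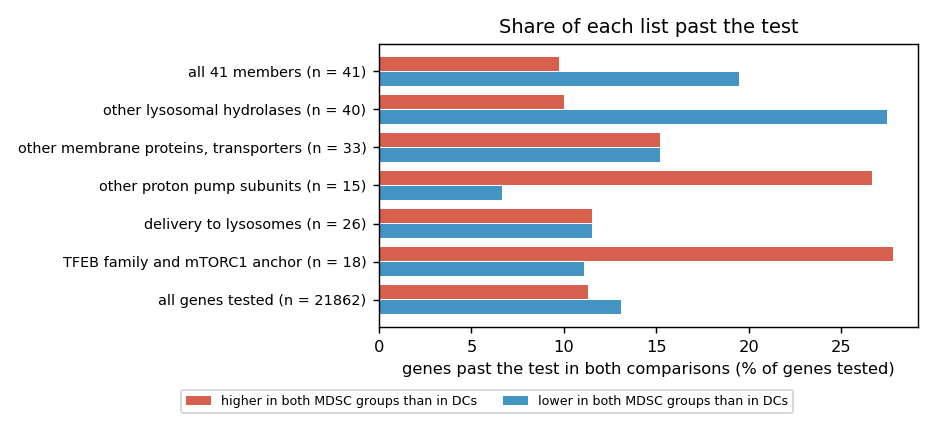
Share of genes (horizontal axis, percent of the genes tested in each list) past the test in both comparisons with DCs, higher (upper bar) or lower (lower bar) in MDSC, for the 41 members, the 5 other lysosomal lists and all genes tested. The members stand at 9.76% higher and 19.5% lower, and all genes at 11.3% and 13.1%.

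Markers of other cells moved with the same contrast. Of 15 neutrophil markers, 14 passed both comparisons with DCs on the higher side, and their summed linear signal, in units of the array's 75th percentile, was 1593 to 1832 in 6G- BM-MDSC and 1937 to 1955 in MDSC (conv.), against 535 to 549 in DCs. Of 15 DC markers, 12 were lower in both MDSC groups (sums of 944 to 1020 and 983 to 999, against 1675 to 1718 in DCs), and of 12 macrophage markers tested, 8 were lower (188 to 193 and 160 to 168, against 275 to 298). The macrophage marker C1qa, a complement component, read -1.08 and -0.54 in 6G- BM-MDSC and -0.74 and -0.73 in MDSC (conv.), against 3.18 and 3.56 in DCs. Its difference from DCs lay at the extreme of the macrophage list, well beyond the list's median difference. Vsig4 was above background on no array, and Cd163 on none of MDSC (conv.) or DCs. Of 9 monocyte markers, 4 were higher in both MDSC groups (592 to 663 and 696 to 728, against 289 to 356). In 6G- BM-MDSC alone, a DC marker and a macrophage marker were called higher than in DCs, and a monocyte marker was called lower. Of 8 mast cell and basophil markers, 7 were higher in both MDSC groups (75.2 to 78.0 and 78.5 to 79.4, against 12.03 to 15.7), with Mcpt4, Cma1 and Tpsab1 on no array above background. Osteoclast markers were split, 3 higher and 3 lower of 10 (80.5 to 81.1 and 71.8 to 75.9, against 72.5 to 75.8), with Calcr above background on no array. The osteoclast list is not separate from the others, since it shares Mmp9 with the neutrophil list and overlaps the other lysosomal membrane proteins. The part of these cell types in the members' differences was not tested.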

How the data were processed

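RNA of 6 samples, 2 per group, was hybridised to one-colour Agilent mouse arrays. The authors deposited the scanner output of each array, and its processed signal is an intensity that Agilent Feature Extraction had already background-subtracted (version 10.7.3.1 in the file headers, 10.5.1.1 in the submitters' processing notes). The submitters' table of values differed from the scanner values by at most 0.005.

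Control spots and spots marked as outliers were left out, spots of a probe were averaged, and log2 intensity was set relative to the 75th percentile of each array. A probe was kept when well above background on both arrays of at least 1 group (33484 of 56605), and a gene took its brightest kept probe, the one that stands for the gene. Probes were also named through a RefSeq table (58.3% matched), which changed no member. limma 3.58.1 in R 4.3.3 (lmFit and eBayes, group only, 3 residual degrees of freedom) fitted all 6 arrays, with Benjamini-Hochberg adjustment over 21862 genes, or over all kept probes where stated, and a threshold of 0.05. The fit was tested on simulated data. For 9 genes, none a member, a value was missing. The number of arrays limits the precision.

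Values on every array are given for members past the test in both comparisons with DCs, for those at an unadjusted p under 0.05 between both MDSC groups and for pump subunits and transcription factors, and up to 3 genes are named per pathway list. Markers of 6 cell types were summed per array, and a further marker list is not reported here. Members and lists were chosen with earlier results of these data known. Alternatives covered background correction, scaling, filters, probe averaging, the deposited table, the groups in the fit, a replicate block, the methods' t-test, a fold threshold and leaving out each array. They are not separate checks. Leaving out an array outside a comparison matched the fit of the compared groups alone in its share of higher calls. A 2-fold minimum fails any smaller difference by definition.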

Additional observations from a re-analysis of the deposited data

How the results depend on the processing

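Counts below are members past the test, first higher and then lower where both are given. In 6G- BM-MDSC against DCs (5 and 9), normexp background correction gave 9 higher, median scaling 8, averaging a gene's probes 8 and an intensity-dependent prior variance 10. In MDSC (conv.) against DCs (5 and 8), normexp gave 8 higher and the intensity-dependent prior 13 lower. In both comparisons together (4 and 8), normexp gave 8 higher and the intensity-dependent prior 7. A 2-fold minimum left 1 and 2 in each, and the methods' t-test after Benjamini-Hochberg adjustment left 0 and 0. Of these settings, only median scaling in 6G- BM-MDSC and the 2-fold minimum have counts or shares over all genes above. For the others, a change in the members cannot be told apart from a change over all genes. The causes were not tested. Leaving out 1 array gave 1 to 5 higher and 4 to 8 lower in each comparison with DCs, and 1 to 4 higher and 4 to 7 lower in both. Without DCs replicate 2 there were 1 higher and 4 lower in each, and without MDSC (conv.) replicate 1 or replicate 2 there were 5 lower in MDSC (conv.) against DCs. Between 6G- BM-MDSC and MDSC (conv.), the unadjusted methods' t-test gave 2 higher and 2 lower, leaving out 1 array gave 0 to 0, and the difference of Gusb was -0.0094 under normexp, of opposite sign. Atp6v0d2, Gm2a and Ctse passed under all alternatives but the adjusted methods' t-test. Over all genes, 45.8% of calls in 6G- BM-MDSC against DCs were higher, against 59.5% with median scaling and 26.8% with no filter on dim probes (45.8% and 25.1% in MDSC (conv.) for the main setting and no filter). With only the bases before the start, 11 members held the E-box and 5 the CLEAR core. Replicates shared a number only: same-numbered deviations correlated at r = 0.114 between both MDSC groups, 0.0415 between 6G- BM-MDSC and DCs and 0.125 between MDSC (conv.) and DCs. With the replicate block the counts were 5 and 9, and 5 and 8, in the comparisons with DCs, 5 and 8 in both together, and 0 and 0 between both MDSC groups. The members were not all the same: 4 of the 5 and 8 of the 9 calls in 6G- BM-MDSC, and 5 of the 5 and 7 of the 8 in MDSC (conv.), were shared, with Atp6v0d1 and Ctss lost in 6G- BM-MDSC (adjusted p = 0.0598 and 0.0577, limma) and Grn in MDSC (conv.) (adjusted p = 0.0615).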
